A study of Sus scrofa with 36 samples.

Results

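The DNAJ proteins, also called HSP40 co-chaperones, were followed in the adrenal glands of 36 castrated male pigs on 1-colour 60-base oligonucleotide arrays, with 1 array per pig. Every probe was taken whose deposited gene name is DNAJA, DNAJB or DNAJC and a number, and each gene was represented by its probe with the highest mean log2 value. Of 60305 probes on the array, 64 carried 31 such names, out of 39175 different gene names on it. The authors' table held a probe for 29 of these genes, which are the members described here: 3 of subfamily A, 9 of subfamily B and 17 of subfamily C. DNAJB5 and DNAJC2 had only a probe outside that table and were left out. No probe was named DNAJA1, so that 16 of 17 members chosen for a textbook role could be measured.

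The pigs were Creole, Large White and F1, the cross of both breeds, with 6 pigs of each breed kept at thermoneutrality (TN) and 6 after heat stress (HS). The TN pigs were held at 24 °C. For the HS pigs the protocol gives 32 °C and the sample labels give 30 °C. The protocol gives 5 days of exposure, and the study's methods a day less for part of the pigs. Pigs are named by group and a replicate number that follows only the order of deposit. The TN pigs were slaughtered before the temperature rise and the HS pigs after it, so temperature and day of slaughter cannot be told apart. Pens, days and parents of single pigs are not in the labels and entered no fit. The whole gland was measured, cortex and medulla together, so fewer cells of a type and less RNA per cell cannot be told apart.

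As background, a DNAJ protein binds HSP70 through its J domain, speeds the hydrolysis of ATP by HSP70 and so lets HSP70 close on its client protein. A nucleotide exchange factor, such as a BAG protein or HSP110, then releases ADP and the client. Subfamily A has the J domain, a glycine and phenylalanine rich stretch and a zinc finger, subfamily B lacks the zinc finger, and subfamily C shares the J domain and little else. The adrenal gland makes steroids in its cortex and catecholamines in its medulla, work that draws on folding in the endoplasmic reticulum, import into mitochondria and vesicle traffic, where many DNAJ proteins act.

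The following probes carry the results below, and each is printed 5′ to 3′ as deposited. Capitals mark bases that lie in a run of at least 20 bases shared with another probe of the same gene, and positions of the genes come from RefSeq (Sscrofa11.1). The position of each probe within its transcript was not used here.
DNAJA4 at chr7:47660361-47674890, brightest and second brightest probe (the same 60 bases spotted under both names): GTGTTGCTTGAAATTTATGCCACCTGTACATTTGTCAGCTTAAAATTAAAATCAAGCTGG
DNAJC7 at chr12:20725937-20756295, brightest probe: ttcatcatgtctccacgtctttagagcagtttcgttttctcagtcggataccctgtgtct
DNAJC15 at chr11:24011530-24087156, brightest probe: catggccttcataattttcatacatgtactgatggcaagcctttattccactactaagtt
DNAJB1 at chr2:64761672-64764482, brightest probe: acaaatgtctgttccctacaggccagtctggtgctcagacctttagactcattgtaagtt
DNAJB1, first overlapping probe: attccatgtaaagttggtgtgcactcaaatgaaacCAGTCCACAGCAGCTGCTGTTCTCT
DNAJB1, second overlapping probe: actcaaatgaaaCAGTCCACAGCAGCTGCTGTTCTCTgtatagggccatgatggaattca
DNAJB11 at chr13:124387921-124409967, brightest probe: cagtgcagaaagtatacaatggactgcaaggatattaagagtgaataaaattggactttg
DNAJB11, identical pair: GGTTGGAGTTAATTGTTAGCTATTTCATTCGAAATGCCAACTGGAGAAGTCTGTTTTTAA

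The overlapping DNAJB1 probes share an unbroken run of 25 bases, and the stretch before it matches too apart from a single inserted base. The 3 pairs of identical probes show how well a level repeats on 1 array. Between the DNAJA4 pair the difference had an SD of 0.133 over the 36 pigs, against an SD within groups of 0.206 for the level itself. For the DNAJB11 pair the corresponding values were 0.0548 and 0.116, and for a DNAJC19 pair 0.115 and 0.124.

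All levels are log2 of quantile-normalized intensity, and levels of different probes are not set against each other. All 29 members were well above background on all 36 arrays and none of their spots was saturated. Mean levels lay between 5.97 for DNAJC6 and 13.88 for DNAJA3. The SD within groups was 0.142 for the median member, from 0.0613 for DNAJB12 to 0.216 for DNAJC21. DNAJA4 had the widest range over the 36 pigs, from 10.02 to 11.13, and DNAJB12 the narrowest, which spanned 0.277. Over the arrays, 42436 to 48060 probes were well above background and correlations between arrays were 0.982 to 0.996. The number of pigs limits the precision, and p-values measure the spread between these pigs. By the study's methods the pigs of a breed came from a few blocks of littermates, and whole pens were slaughtered at the same temperature. Each fit took the pigs as independent, so littermates and pen mates counted as separate in every p-value. The breed comparisons therefore rest on fewer litters than pigs.

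The first question was whether DNAJ transcripts differed between HS and TN in the 3 breeds together, 18 pigs against 18. By limma with Benjamini-Hochberg adjustment over all probes, 0 of 29 members passed 0.05, where 0.886% of the 45943 tested probes did. At an unadjusted p under 0.05 there were 7 members, 24.1%, beside 13.4% of all probes. Of the members 10 were higher and 19 lower in HS, with a median log2 difference of -0.02, while 22972 of all 45943 probes were higher and their median was 0.00. The sizes were small, with a median absolute log2 difference of 0.0390 over the members and 0.0533 over all probes.

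**Figure D1:**
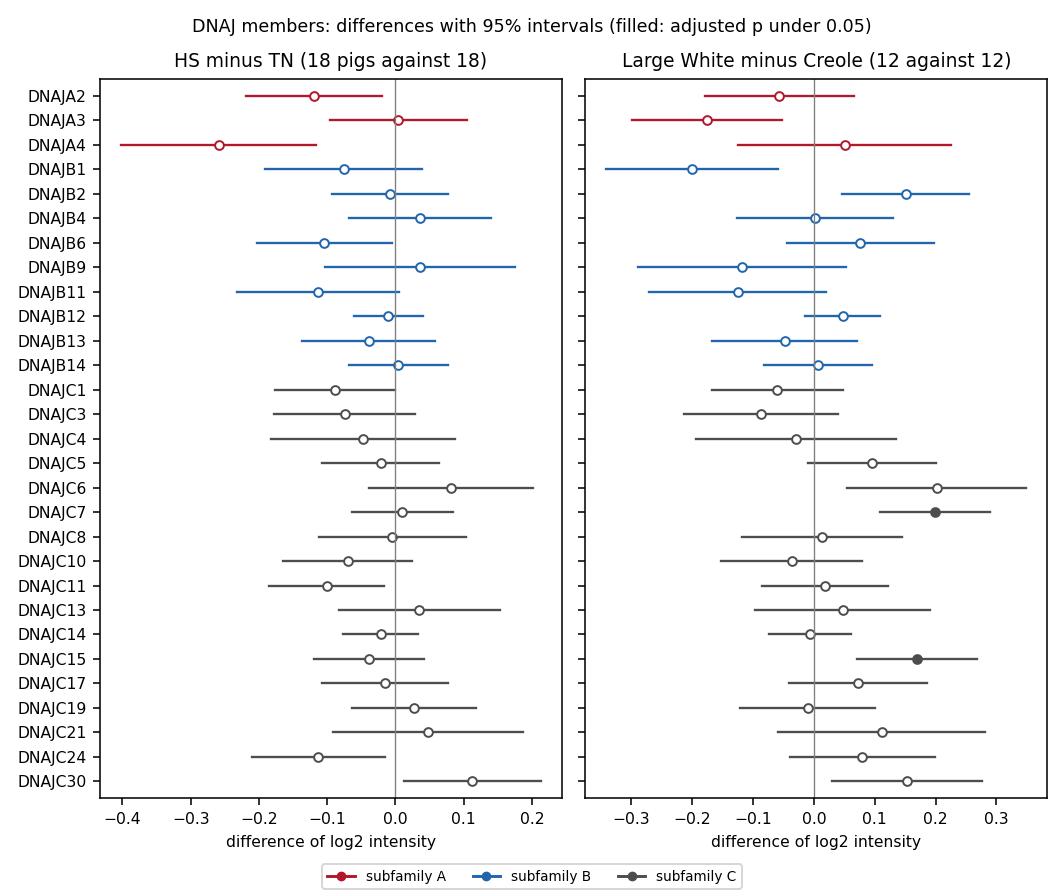
Differences of log2 intensity with 95% intervals for the 29 members, HS minus TN on the left and Large White minus Creole on the right, coloured by subfamily. No member is filled (adjusted p under 0.05) on the left, where DNAJA4 lies farthest below 0, and 2 members, DNAJC7 and DNAJC15, are filled on the right.

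DNAJA4, a cytosolic co-chaperone of subfamily A whose gene is induced by heat, had the largest difference between HS and TN. Its level ran from 10.28 over a median of 10.83 to 11.13 in TN, and from 10.02 over 10.60 to 10.87 in HS. The HS pigs were lower on the median, but both ranges overlapped over most of their width. The log2 difference was -0.26 with a standard error of 0.0705, a level 16.4% lower, and the 95% interval ran from -0.40 to -0.12. The adjusted p of limma was 0.0637, which missed the threshold, and in 16 of 18 HS pigs the level was under the mean of the TN pigs of the same breed. On the 5 slides the difference was -0.55, -0.23, -0.14, -0.35 and -0.16, negative on each.

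The second brightest DNAJA4 probe has the same 60 bases. It ran from 9.90 over a median of 10.35 to 10.51 in TN and from 9.51 over 10.07 to 10.29 in HS. There the log2 difference was -0.29 with an adjusted p of 0.0118 by limma, so that this probe passed. Both readings of the same sequence were thus lower in HS, and 1 of them passed. Within breeds the second probe had -0.14 in Creole, -0.46 in F1 with an adjusted limma p of 0.0551, and -0.25 in Large White. The remaining DNAJA4 probe, of another sequence, had -0.16 and did not pass.

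Among the other heat-inducible cytosolic members, DNAJB1, the best known HSP40 of the heat shock response, had a log2 difference of -0.08 with an interval from -0.19 to 0.04 and an adjusted limma p of 0.612. DNAJB6, which holds back protein aggregation, had -0.10 with an adjusted p of 0.334. DNAJB4 had 0.04. Of the 4 measured genes of the 5 on this list, 1 was higher and 3 lower in HS, with a median of -0.09 and none past the threshold.

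Members of the endoplasmic reticulum serve BiP, the HSP70 of that compartment. Of 8 measured genes on a list of 10, 2 were higher and 6 lower in HS, with a median of -0.05 and none past the threshold. DNAJB11, a soluble co-chaperone that binds unfolded clients, had -0.11 with an adjusted limma p of 0.406. In TN its level was 11.09 at the lowest, 11.54 at the median and 11.82 at the highest, and in HS 11.14, 11.39 and 11.71. The HS median was lower and both ranges nearly coincided.

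DNAJB11 has 3 further probes. In the identical pair, whose sequence is not that of the brightest probe, the log2 differences were -0.16 with an adjusted p of 0.0470 and -0.19 with 0.0192 by limma, so both passed. In TN the second of them ran from 10.42 over 10.64 to 10.85, and in HS from 10.27 over 10.42 to 10.69. The fourth DNAJB11 probe had -0.12. All 4 probes were thus lower in HS and 2 that share a sequence fell. DNAJC3, which also binds BiP, had -0.07, and DNAJB9, which helps to dispose of misfolded proteins, had 0.04.

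The remaining members near the top of the comparison did not pass. DNAJA2, a constitutive cytosolic member, had -0.12 with an adjusted limma p of 0.255 and a level under the TN mean of the same breed in 12 of 18 HS pigs. The other DNAJA2 probe had -0.04 with an adjusted p of 0.808 by limma. DNAJC11, a protein of the mitochondrial membranes, had -0.10 with the same adjusted p, 0.255, and 15 of 18 pigs. Without Large White HS replicate 5, whose DNAJC11 level of 13.85 stood above the others of its group, it had -0.13 and passed, with an adjusted limma p of 0.0301. For DNAJC24, which takes part in the making of diphthamide, the difference was -0.11 with an adjusted p of 0.269. DNAJC30, another mitochondrial member, was the only one of the 7 with an unadjusted p under 0.05 that was higher in HS, by 0.11 with an adjusted p of 0.290. Its other probe had -0.02. The mitochondrial list had 3 of 5 genes higher and a median of 0.00, the traffic list 2 of 3 higher and 0.04, and the list of nuclear, ribosomal and RNA genes 1 of 3 measured higher and -0.00.

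Other members with a known role differed little between HS and TN. DNAJC5, the cysteine string protein of secretory vesicles, had a log2 difference of -0.02, DNAJC6 had 0.08 and DNAJC13, of endosomes, had 0.04. DNAJC10, a reductase of disulfide bonds in the endoplasmic reticulum, had -0.07, and DNAJC19, of the mitochondrial import motor, had 0.03. DNAJA3 had 0.00, DNAJC7 had 0.01 and DNAJC15 had -0.04. The 95% interval of each of these held 0. DNAJC5, DNAJC6 and DNAJC10 are among the 6 members with a mean level under 7.5, near the low end of the scale.

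By subfamily, the median log2 difference between HS and TN was -0.12 for the 3 genes of A, -0.01 for the 9 of B and -0.02 for the 17 of C. These are descriptions of small lists, and the value for A rests on DNAJA2, DNAJA3 and DNAJA4. With the second brightest probe of each gene that has one it was -0.0374.

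Within each breed 6 HS pigs were set against 6 TN pigs. No member passed in Creole or F1, where 0% of all probes did, or in Large White, where 0.0109% did. At an unadjusted p under 0.05 there were 2 members in Creole, 4 in F1 and 0 in Large White, beside 4.80%, 12.2% and 6.27% of all probes. In F1 these were DNAJA4 with a log2 difference of -0.46 and an adjusted limma p of 0.105, DNAJA2 with -0.24, DNAJC3 with -0.25 and DNAJB11 with -0.26. In Creole they were DNAJB1 with -0.25 and an adjusted limma p of 0.933, and DNAJC11 with -0.19. The members lower in HS numbered 14 of 29 in Creole, 20 in F1 and 22 in Large White.

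DNAJA4 shows how the breeds lay. In Creole the 6 TN pigs ran from 10.28 over a median of 10.77 to 10.97, and the 6 HS pigs from 10.54 over 10.61 to 10.74. F1 pigs ran from 10.67 over 10.96 to 11.13 in TN and from 10.02 over 10.49 to 10.75 in HS. Large White pigs ran from 10.53 over 10.86 to 11.11 in TN and from 10.22 over 10.63 to 10.87 in HS. The HS median was lower in each breed and the ranges overlapped in each. The test of the difference between breeds, the interaction of breed and temperature, passed for 0 members and for 0% of all probes. At an unadjusted p under 0.05 it held 1 member, DNAJC3, with an adjusted limma p of 0.982, beside 4.21% of all probes.

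**Figure D2:**
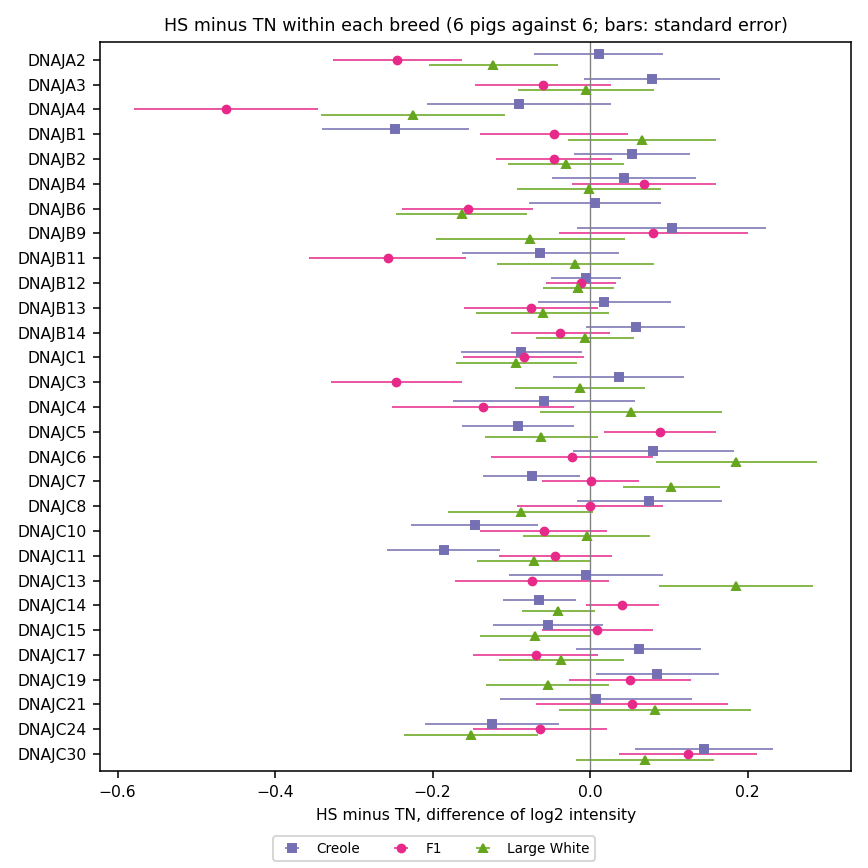
HS minus TN within each breed for the 29 members, as differences of log2 intensity with standard errors, 6 pigs against 6. DNAJA4 in F1 lies lowest at -0.46, and no point passed the threshold.

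The next question was whether the breeds differed, with temperature in the model. By the F test across the 3 breeds, 2 of 29 members passed, 6.90%, beside 10.4% of all probes. These were DNAJC7 with an adjusted limma p of 0.00865 and DNAJC15 with 0.0444, and with 1 pig left out at a time DNAJC7 passed in 36 of 36 fits and DNAJC15 in 17. Neither passed the F test without slide 3, 4 or 5 or with the adipocyte covariate described below. At an unadjusted p under 0.05 the F test held 7 members, 24.1%, beside 24.5% of all probes. Between Large White and Creole, 12 pigs against 12, the same 2 members passed, 6.90% beside 11.3% of all probes, and again 7 members had an unadjusted p under 0.05 beside 24.2%. Large White was higher in 17 members and lower in 12, and in 22984 of all 45943 probes it was higher. The share of members that passed was therefore below that of all probes, and the median absolute log2 difference was 0.0722 against 0.0793.

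DNAJC7, which carries tetratricopeptide repeats and binds both HSP70 and HSP90, rose in Large White against Creole. Its level ran from 11.96 over a median of 12.07 to 12.12 in Creole, from 12.06 over 12.13 to 12.32 in F1, and from 11.98 over 12.28 to 12.42 in Large White. Large White was highest on the median and F1 lay between its parents, with ranges that overlapped. The log2 difference was 0.20 with a standard error of 0.0448 and an interval from 0.11 to 0.29, a level 14.8% higher, with an adjusted p of 0.00268 by limma. All 12 Creole pigs lay below the Large White mean, and 10 of 12 Large White pigs above the Creole mean. On the 5 slides the difference was 0.06, 0.08, 0.27, 0.23 and 0.31. The other DNAJC7 probe had 0.08 with an adjusted p of 0.196. Without slide 3 DNAJC7 had 0.18 and missed the threshold, with an adjusted limma p of 0.0592.

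DNAJC15, a protein of the inner mitochondrial membrane that restrains the respiratory chain, rose likewise. In Creole it ran from 13.05 over a median of 13.43 to 13.57, in F1 from 13.29 over 13.49 to 13.69, and in Large White from 13.42 over 13.59 to 13.75. The order of the medians was again Creole, F1, Large White, with overlap. The log2 difference was 0.17 with a standard error of 0.0485 and an interval from 0.07 to 0.27, a level 12.5% higher, with an adjusted p of 0.0188 by limma. All 12 Large White pigs lay above the Creole mean and all 12 Creole pigs below the Large White mean. The slides gave 0.58, 0.15, 0.10, 0.19 and 0.09, and slide 1, which holds 4 arrays and 1 Creole pig, gave the largest. The other DNAJC15 probe had 0.11 with an adjusted p of 0.231. The call was lost with Agilent's processed signal (adjusted limma p 0.155), with median centring (0.107), with the mean over both probes (0.0629) and without slide 1 (0.0809), slide 3 (0.0771) or slide 4 (0.0733).

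**Figure D3:**
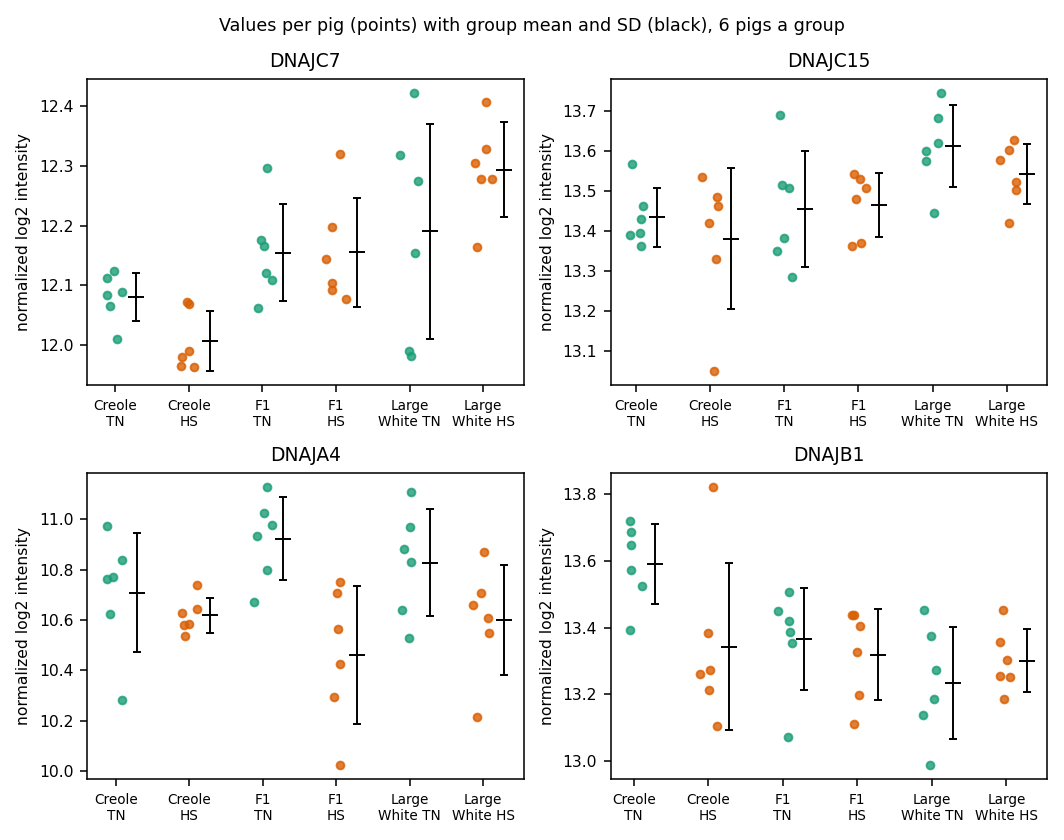
Normalized log2 intensity of DNAJC7, DNAJC15, DNAJA4 and DNAJB1 in each of the 36 pigs (points, TN green and HS orange), with the mean and SD of each group of 6 in black. DNAJC7 and DNAJC15 lie higher in Large White than in Creole, and DNAJA4 lies lower in HS than in TN on the median of each breed.

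The other 5 members with an unadjusted p under 0.05 between Large White and Creole did not pass the adjusted test. DNAJB2, a co-chaperone of neural tissue, had 0.15 with an adjusted limma p of 0.0522, and DNAJC6, auxilin, which uncoats clathrin vesicles, had 0.20 with 0.0671. DNAJC6 is the dimmest member, and its difference was 0.39 with the processed signal, 0.14 with normexp background correction and 0.11 with the adipocyte covariate described below, none of which passed. DNAJC30 had 0.15 with 0.101. DNAJA3, a mitochondrial co-chaperone, had -0.18 with an adjusted limma p of 0.0547. Without slide 4 DNAJA3 had -0.10 with an adjusted limma p of 0.407, and without slide 2 it had -0.22 and passed, with 0.0498. It also passed with normexp background correction, with an adjusted limma p of 0.0367. On single slides its difference ran from -0.44 to 0.04.

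DNAJB1 had -0.20 with an adjusted limma p of 0.0575. It passed with normexp background correction (adjusted limma p 0.0469), array weights (0.0333), the probe mean (0.0443) and without slide 4 (0.0384). It missed further with the second brightest probe (0.279), without slide 5 (0.186) and with the adipocyte covariate described below (0.411). It ran from 13.11 over a median of 13.46 to 13.82 in Creole, from 13.07 over 13.40 to 13.51 in F1, and from 12.99 over 13.26 to 13.45 in Large White. No Large White pig lay above the Creole mean, although the ranges overlapped. Both overlapping DNAJB1 probes passed, with log2 differences of -0.26 at an adjusted p of 0.0276 and -0.29 at 0.0173 by limma. The first of them ran from 10.96 over 11.41 to 11.81 in Creole and from 10.78 over 11.13 to 11.36 in Large White. All 5 DNAJB1 probes were lower in Large White, from -0.08 to -0.29, and lower in HS, from -0.08 to -0.20. By group the brightest probe ran from 13.39 over 13.61 to 13.72 in Creole TN and from 13.11 over 13.27 to 13.82 in Creole HS. F1 ran from 13.07 over 13.40 to 13.51 in TN and from 13.11 over 13.37 to 13.44 in HS. Large White ran from 12.99 over 13.23 to 13.45 in TN and from 13.18 over 13.28 to 13.45 in HS. Creole TN had the highest median, and the medians of Creole and Large White nearly met in HS.

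Within breeds, HS minus TN for the brightest DNAJB1 probe was -0.25 in Creole, -0.05 in F1 and 0.07 in Large White. The overlapping probes had -0.35 and -0.41 in Creole, -0.08 and 0.0048 in F1, and 0.08 and 0.12 in Large White. None of these passed, and the interaction of breed and temperature had an adjusted limma p of 0.982 for the brightest probe. The remaining 2 probes had -0.18 and -0.12 in Creole, -0.28 and -0.26 in F1, and -0.15 and -0.19 in Large White, none past the threshold. The 5 probes were thus all lower in HS in Creole, and in F1 and Large White their signs were mixed.

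The lists by role had medians near 0 between Large White and Creole: 0.03 for the heat-inducible genes, -0.05 for the endoplasmic reticulum with 6 of 8 lower, 0.02 for the mitochondrion with DNAJC15 past the threshold, 0.10 for traffic and 0.07 for nuclear, ribosomal and RNA genes, with all 3 measured genes higher in each of the last 2. The subfamilies had -0.06 for A, 0.00 for B and 0.05 for C, where 11 of 17 were higher and DNAJC7 and DNAJC15 passed. Members with a textbook role not yet given in this comparison lay between -0.13 for DNAJB11 and 0.10 for DNAJC5, and the 95% interval of each held 0.

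Markers of other cell types moved with breed. Of 5 adipocyte markers 4 fell in Large White, from -0.59 for CIDEC to -1.62 for ADIPOQ, and the mean level of the list ran from 8.45 to 9.76 in Creole TN, 8.82 to 9.45 in Creole HS, 8.29 to 8.85 in Large White TN and 8.14 to 8.58 in Large White HS. Of 4 measured chromaffin markers on a list of 8, 3 rose in Large White, by 0.53 for CHGB, 0.38 for PNMT and 0.16 for CHGA, with list means of 14.34 to 14.71 in Creole TN, 14.10 to 14.75 in Creole HS, 14.74 to 15.16 in Large White TN and 14.21 to 14.90 in Large White HS. With the adipocyte mean as a covariate DNAJC7 had 0.24 with an adjusted limma p of 0.0587 and DNAJC15 0.12 with 0.489. With the chromaffin mean DNAJC7 had 0.24 with an adjusted limma p of 0.0139 and DNAJC15 0.14 with 0.234. With both means they had 0.26 with an adjusted p of 0.0613 and 0.10 with 0.619. The labelled tissue was checked on the same lists: 7 of 8 cortex markers were measured, with a list mean of 14.73 to 15.15 in HS and 14.80 to 15.20 in TN, while TH and DBH of the medulla had no probe matched by name. Of these 7 cortex markers 2 fell in Large White and 1, NR5A1, fell in HS. Of 5 endothelium markers 1, KDR, rose in Large White, by 0.68 with an adjusted limma p of 0.000401. In that list 2 markers were higher and 3 lower in Large White. In HS all 4 chromaffin markers were lower with none called, and with that covariate DNAJA4 had -0.20 with an adjusted limma p of 0.251 between HS and TN.

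The F1 pigs were compared with the mean of both parental breeds. No member passed, beside 0.409% of all probes, and 1 had an unadjusted p under 0.05 beside 11.0%. This was DNAJB14, of the endoplasmic reticulum membrane, with a log2 difference of -0.08 and an adjusted limma p of 0.454. DNAJB6 had -0.08 and DNAJC24 0.08. Without slide 4 these values were -0.02 for DNAJB14, -0.04 for DNAJB6 and 0.02 for DNAJC24, and over the other slides left out they reached -0.11, -0.12 and 0.14. The members were higher in 14 and lower in 15.

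Genes with several probes showed how far a value depends on the probe. For 15 members 33 other probes were tested. Their difference had the sign of the brightest probe in 22 cases between HS and TN, in 28 between Large White and Creole and in 21 for F1 against its parents. Of these 33 probes 3 passed between HS and TN, namely those of DNAJA4 and DNAJB11 above, beside 0.886% of all probes, and 5 between Large White and Creole, beside 11.3%, a share near the background. Probes of 1 gene are not independent of each other. The latter 5 were the overlapping DNAJB1 pair and the following, printed because their brightest probe did not pass.
DNAJC1 at chr10:52862813-53060747, other probe: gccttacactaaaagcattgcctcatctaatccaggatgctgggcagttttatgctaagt
DNAJC11 at chr6:67463366-67529958, other probe: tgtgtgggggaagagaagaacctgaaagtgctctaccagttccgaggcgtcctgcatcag
DNAJC3 at chr11:65230145-65299084, other probe: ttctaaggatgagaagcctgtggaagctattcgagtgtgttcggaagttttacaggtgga

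The DNAJC11 probe had -0.22 with an adjusted limma p of 0.0212, running from 10.57 over a median of 10.90 to 11.25 in Creole and from 10.37 over 10.72 to 10.83 in Large White, while the brightest DNAJC11 probe had 0.02. The DNAJC1 probe had -0.19 with 0.0197 and the DNAJC3 probe -0.18 with 0.0316 by limma. Each was lower in Large White, and the brightest probes of DNAJC1 and DNAJC3 were lower as well.

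**Figure D4:**
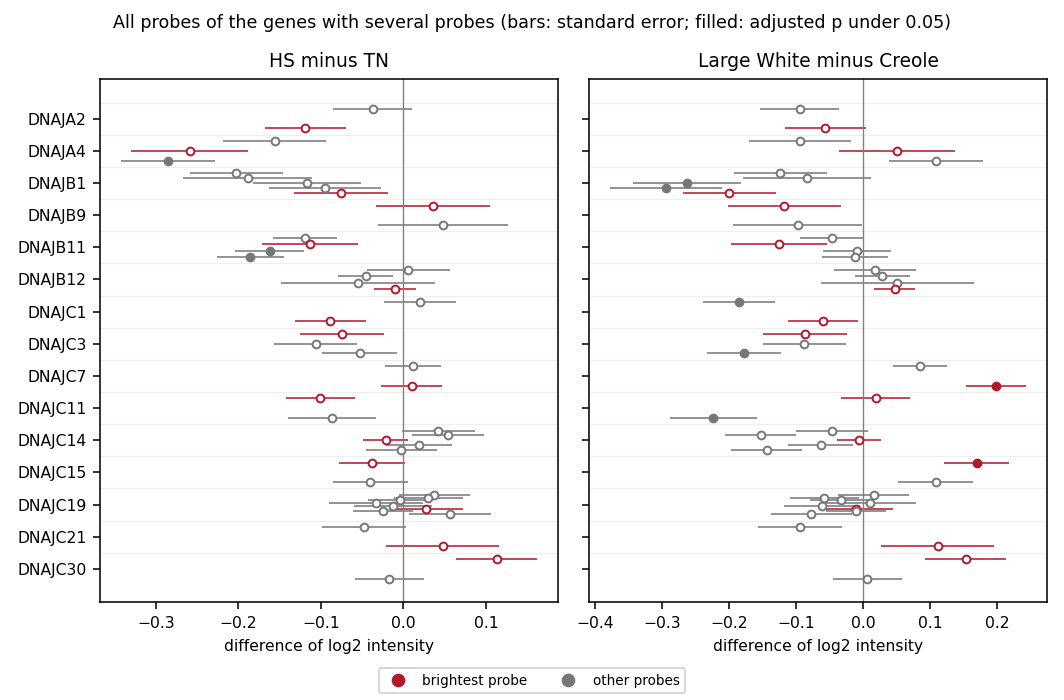
Log2 differences with standard errors of all tested probes for the 15 members with several probes, HS minus TN on the left and Large White minus Creole on the right, with the brightest probe in red. Filled points passed an adjusted p of 0.05: 3 on the left and 7 on the right.

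The partners of DNAJ in the HSP70 cycle were read from a list. Of 11 measured HSP70 and HSP110 genes on a list of 14, 2 fell in HS and 0 rose. HSPA8, the constitutive HSP70, ran from 15.55 over a median of 16.00 to 16.42 in TN and from 14.97 over 15.42 to 15.99 in HS. The log2 difference was -0.57 with a standard error of 0.0789 and an adjusted limma p of 0.000390. HSPH1, an HSP110, had -0.53 with an adjusted limma p of 0.00989. HS was lower for both, with overlapping ranges. Of 6 measured exchange factors BAG3 fell, by 0.23 with an adjusted limma p of 0.0379, and of 6 adaptors none passed. Names not matched to a probe included HSPA1A, HSPA1B and STIP1. No DNAJ member passed on its brightest probe in that comparison.

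To see whether members followed HSPA8 from pig to pig, each was fitted on HSPA8 within the 6 groups. The slope passed for 0 members, beside 0.0174% of all probes, and 3 members had an unadjusted p under 0.05 beside 7.40%. DNAJB12, an endoplasmic reticulum membrane co-chaperone, had the largest correlation over the 36 pigs, Pearson's r of 0.53 with a permutation p of 0.00179 and 0.0519 after adjustment over 29 relations, and Spearman's rho of 0.52 with a permutation p of 0.00301 and 0.0873 after adjustment. Without the 2 pigs farthest from the median r was 0.60, and on the slides with 8 arrays it ran from 0.11 to 0.74. The other DNAJB12 probes followed this probe weakly within groups, with r of 0.30, 0.02 and -0.07. The relation therefore belongs to this probe and was not shown for the gene.

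With HSPH1 in place of HSPA8 the slope passed for 1 member, DNAJB11, with an adjusted limma p of 0.0383, beside 2.92% of all probes. At an unadjusted p under 0.05 there were 6 members, 20.7%, and the same share of all probes, 20.7%, so the members stood at the background. Of the 29 correlations with HSPH1, 3 had an adjusted permutation p of r under 0.05. This adjustment covered the 29 relations only, and no other probes were permuted, so a share over all probes is lacking. For DNAJB11 r was 0.58 and rho 0.63, with permutation p of 0.00146 and 0.000300 and adjusted p of 0.0364 and 0.00435. Without the 2 farthest pigs r was 0.53, with slide removed 0.34, and on the slides with 8 arrays it ran from -0.08 to 0.80. The further DNAJB11 probes followed the brightest one within groups with r of 0.46, 0.67 and 0.57. For DNAJC4 r was 0.52 and rho 0.60, with permutation p of 0.00251 and 0.000230 and adjusted p of 0.0364 and 0.00435.

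The DNAJC4 relation had r of 0.61 without the 2 farthest pigs, 0.23 with slide removed, and -0.39 to 0.88 on the slides, so its sign was not the same on each. For DNAJC3 r was 0.49 and rho 0.46, with permutation p of 0.00405 and 0.00905 and adjusted p of 0.0391 and 0.0525. There r was 0.43 without the 2 farthest pigs, 0.40 with slide removed, and 0.23 to 0.55 on the slides, positive on each.

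Members were also correlated with each other after the 6 group means were removed. Over 406 pairs the median r was 0.05, from -0.61 to 0.77, and 5 pairs had an adjusted permutation p of r under 0.05. Pairs of other probes were not permuted, so this count has no share over all probes beside it. DNAJB11 and DNAJC4 had r of 0.77 and rho of 0.76, each with a permutation p of 1e-05, the smallest that 100000 permutations can give, and an adjusted p of 0.00406. Without the 2 farthest pigs r was 0.73, with slide removed 0.47, and on the slides with 8 arrays 0.25 to 0.88. The brightest DNAJB11 probe had a lower r with the further DNAJB11 probes, 0.46, 0.67 and 0.57, than with DNAJC4. The other 4 pairs, with adjusted permutation p of r of 0.0471 each, lay so close to the threshold that another draw of the permutations could move them across it. They were DNAJC5 with DNAJC21 (r of -0.61, and -0.48 with slide removed), DNAJC1 with DNAJC21 (-0.57 and -0.40), DNAJB13 with DNAJC6 (-0.57 and -0.52) and DNAJB1 with DNAJB12 (0.56 and 0.61). On single slides with 8 arrays each of these 4 kept its sign, from -0.08 to -0.77, -0.39 to -0.67, -0.11 to -0.74 and 0.18 to 0.80. Their rho was -0.63, -0.59, -0.53 and 0.58, with adjusted permutation p of 0.0447, 0.0447, 0.0971 and 0.0541. Other probes of these genes followed the brightest one within groups to unlike degrees. That r was 0.003 for DNAJC21 and 0.30, 0.02 and -0.07 for DNAJB12. It was 0.73 for DNAJC1 and ran from 0.60 to 0.80 for DNAJB1.

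Slide moved with several members. Beside the 6 groups, the slide term passed for 7 of 29 members, with 16.2% of all probes: DNAJA2, DNAJB6, DNAJB11, DNAJC4, DNAJC13, DNAJC19 and DNAJC21. DNAJB11 and DNAJC4, the closest pair, were both lower on slides 1 and 2 by their mean residuals, -0.16 and -0.17 for DNAJB11 and -0.23 and -0.16 for DNAJC4. Each slide held TN and HS pigs in equal number.

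**Figure D5:**
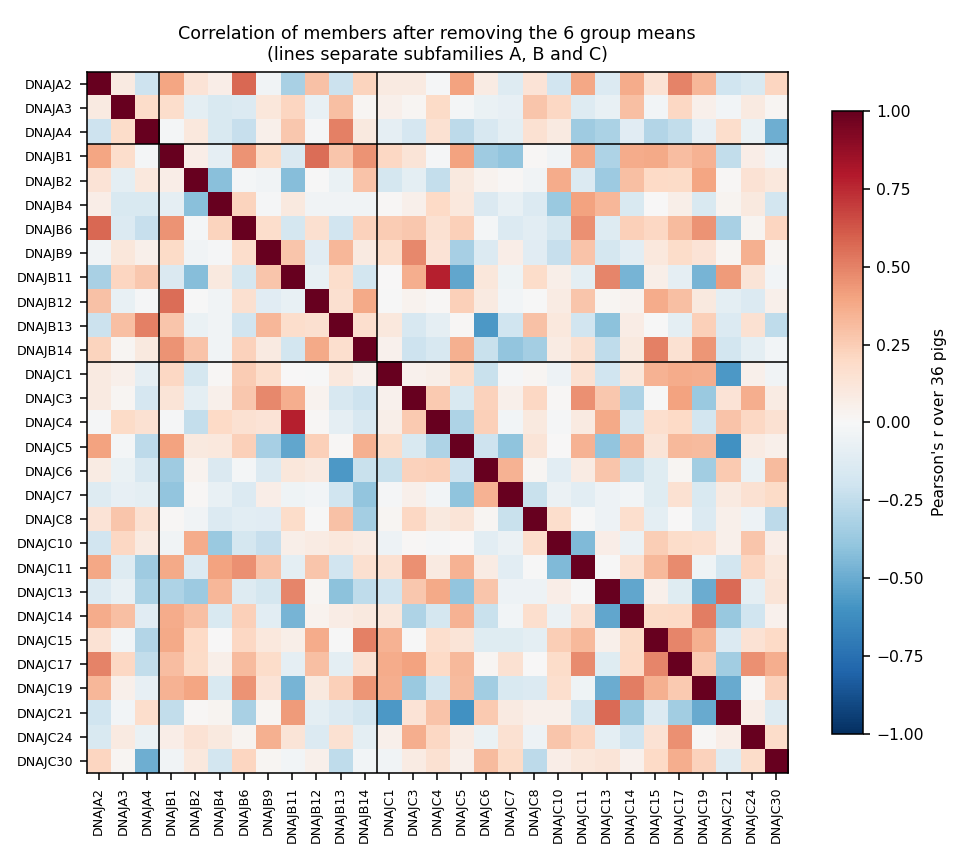
Pearson's r between the 29 members over 36 pigs after removing the 6 group means, with lines between subfamilies A, B and C. The darkest red pair off the diagonal is DNAJB11 with DNAJC4 at 0.77, and the most negative is DNAJC5 with DNAJC21 at -0.61.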

How the data were processed

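Adrenal RNA of 36 pigs was measured on 1-colour arrays, 1 array per pig, scanned on 1 day on 5 slides. The authors extracted each spot with Feature Extraction 10.10.1.1 and deposited its intensity without normalization across arrays. A table of log2 values that the authors deposited covers 45348 probes after quantile normalization and was used as an alternative and to choose the brightest probe of each gene. The tables held 0 columns of other samples. Groups came from the labels.

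From the scanner files, control spots and outlier spots were left out, and the median pixel intensity of the others was brought to common quantiles, averaged over the spots of each probe and put on the log2 scale. Probes well above background on at least 9 of 18 arrays of TN or HS were kept (45943). Tests used limma 3.58.1 in R 4.3.3 with temperature and breed, Benjamini-Hochberg adjustment over all probes and a threshold of 0.05. Correlations used 100000 permutations in Python 3.11.15 with scipy 1.17.1. The scripts were tested on simulated data.

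Members were named when they passed a comparison, were among the 5 largest by temperature or between Large White and Creole or the 3 largest for F1, or had a textbook role. Members and lists were chosen with earlier results of these data known. The pens, days and parents that the authors modelled were not in the labels used here. Alternatives changed the background correction, normalization, filter, slide, array weights, probe choice and marker covariates, and left out each pig and slide in turn.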

Additional observations from a re-analysis of the deposited data

Results flagged for a closer look

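In groups of 6 pigs the highest or lowest pig was compared with the rest by Dixon's criterion, under which chance alone marks about 1 in 20 groups. Of 174 combinations of member and group 9 were marked, 5.172%. The low pigs were F1 TN replicate 3 for DNAJB1 at 13.07, Large White TN replicate 1 for DNAJB11 at 11.09, F1 HS replicate 4 for DNAJC1 at 10.33 and Large White HS replicate 5 for DNAJC10 at 5.84. The high pigs were Creole TN replicate 5 for DNAJB13 at 10.64, F1 HS replicate 2 for DNAJC10 at 6.28, Large White HS replicate 5 for DNAJC11 at 13.85, Large White HS replicate 1 for DNAJC19 at 12.32 and Creole HS replicate 4 for DNAJC6 at 6.22. Among the partners, HSPH1 stood out in Creole HS replicate 6 at 12.73.

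Both genes without a probe in the authors' table gave some signal. The DNAJB5 probe was well above background on 17 of 36 arrays and the DNAJC2 probe on 4.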

How the results depend on the processing

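The authors' own values gave the same calls as the values used here. Counts of members under the alternatives are given without the share of all probes that passed under each. They therefore describe how calls moved and do not set the members against the array. Between HS and TN, 1 member (DNAJA4) in place of 0 passed with the processed signal at the 75th percentile (adjusted limma p 0.0441), the mean over all probes of a gene (0.0197), a threshold of 0.10, the adipocyte covariate (0.0456) and the second brightest probe (0.0118). Between Large White and Creole, where 2 passed, 5 passed with normexp background correction, 4 with array weights and 3 with slide as a fixed block, which added DNAJB2. Only 1 passed with the processed signal, median centring, the chromaffin covariate, a threshold of 0.01 or without slide 1. None passed without slide 3, with the adipocyte covariate or with both covariates. With the second brightest probe neither DNAJC7 (adjusted limma p 0.196) nor DNAJC15 (0.231) passed. DNAJC1 (0.0197), DNAJC11 (0.0212) and DNAJC3 (0.0316) passed there instead, each lower in Large White. By the F test between breeds, where 2 passed, 1 passed with the processed signal, median centring, no filter, array weights, the chromaffin covariate, the probe mean and without slide 1 or 2, and 0 without slide 3, 4 or 5 or with the adipocyte covariate. Within F1, 1 passed without slide 5. The slope on HSPH1 in place of HSPA8 called 1 member, DNAJB11, beside 2.92% of all probes. With the second brightest probe DNAJC30 turned to -0.0169 between HS and TN and the median of subfamily A moved to -0.0374. The cause was not tested.

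Leaving out 1 pig at a time gave 0 to 1 members between HS and TN, 2 to 5 between Large White and Creole, 1 to 3 between breeds, and 0 in the other comparisons. DNAJA4 passed without Creole TN replicate 1 (adjusted limma p 0.0247) or Large White TN replicate 5 (0.0473), and DNAJC11 without Large White HS replicate 5 (0.0301). Medians by subfamily ran from -0.14 to -0.11 for A, -0.02 to -0.00 for B and -0.03 to -0.01 for C. Between Large White and Creole, DNAJC7 and DNAJC15 passed in all 36 such fits, DNAJB2 in 9, DNAJA3 and DNAJB1 in 7 each, DNAJC6 in 3 and DNAJC30 in 1. By the F test between breeds DNAJC7 passed in all 36 and DNAJC15 in 17. The adipocyte covariates and the second brightest probe were chosen after seeing the data. No paired analysis was possible because the labels give no replicate numbers and no littermate blocks. The replicate numbers used here follow the order of deposit. The limits are the 6 pigs per group, litters and pens that no fit took into account, and probes whose place in the transcript is not known here. All members were well above background on all 36 arrays, but 6 had a mean level under 7.5. The values used here were not background-subtracted. For DNAJC24, 1 of these 6, HS minus TN was -0.11 here, -0.16 with the processed signal and -0.10 with normexp background correction.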
